A study of Rattus norvegicus with 6 samples.

Results

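A pair of rat chromosome 2 loci gave circular RNAs (circRNAs) whose summed reads had a higher mean in the thalamus of rats injected with CFA in the jaw joint than in saline controls. The 24 circles read from them, of 32445 circRNAs in the series, are described here. Membership was by position in the deposited sequence headers. There were 9 circles on the minus strand between 109.305 and 109.366 Mb, called the minus-strand locus here, and 15 on the plus strand between 34.374 and 34.545 Mb (rounded). Which genome build these positions belong to was not given in the sources used here. Both loci were picked because their sums differed between the groups, so every CFA and saline value below describes the choice and carries no test.

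Thalamus RNA came from 6 rats, 3 per group. In the CFA group 50 µL of CFA (complete Freund's adjuvant, an oil emulsion with killed mycobacteria that provokes lasting inflammation) was injected into the temporomandibular joint on both sides, and the control group received 50 µL of saline in the same way. Injections were repeated 2 times a week and tissue was collected at 14 days. Strain, sex and age were not given in the sources used here. Because the circRNA identifiers are not paired with gene names, the labelled tissue was not checked against thalamic marker genes. The libraries held between 573696 (saline replicate 1) and 1176178 (saline replicate 2) circRNA reads, so 1 read was worth 0.850 to 1.74 RPM (reads per 1000000 circRNA reads). No count of 1 occurs among the deposited values. A 0 may therefore stand for a single read. It is taken here to allow up to 3 reads, which is 2.55 to 5.23 RPM depending on the library.

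A circRNA arises when the spliceosome joins the end of a downstream exon back to the start of an upstream exon, which closes the RNA into a ring without a cap or a poly(A) tail. One gene often gives several circles, because different exon ends (donors) can be joined to the same exon start (acceptor) or the reverse. Circles lack free ends and are degraded slowly, and neurons are rich in them. In bulk tissue a change in the number of cells of a type and a change in RNA per cell cannot be told apart.

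The host gene of the plus-strand locus could be named from sequence. The RefSeq window of 300 bases around the start of Adamts6 (GRCr8, chromosome 2, plus strand, 250 bases before to 50 after the start) occurs whole and unbroken in a 616 nt circle of this locus, and it was the sole window of 33469 searched to be found whole in any of the 24 circles. All 15 circles of the locus are linked to that circle, directly or through one another, by stretches of 20 or more identical bases. The locus is therefore called the Adamts6 locus. Adamts6 encodes a secreted metalloproteinase of the ADAMTS family, enzymes with thrombospondin type 1 repeats that act on the extracellular matrix. No window was found whole in the 9 circles of the minus-strand locus, which is left without a name, and its circles are likewise all linked by shared stretches.

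The back-splice junctions of the minus-strand locus show how its circles are built, and they are printed, from the authors' deposited sequences, because a circle is defined by its junction. In each line the first 29 bases are the end of the circle and the last 29 its start, 5′ to 3′. The following 4 circles share 1 acceptor, at the 5′ end of the locus (109.366 Mb), whose bases are in capitals.
novel_circ_0022821 (437 nt): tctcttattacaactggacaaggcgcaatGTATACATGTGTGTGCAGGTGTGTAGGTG
novel_circ_0022819 (424 nt): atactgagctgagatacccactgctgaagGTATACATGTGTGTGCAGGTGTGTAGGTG
novel_circ_0022813 (357 nt): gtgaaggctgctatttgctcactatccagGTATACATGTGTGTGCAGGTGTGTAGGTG
novel_circ_0022817 (343 nt): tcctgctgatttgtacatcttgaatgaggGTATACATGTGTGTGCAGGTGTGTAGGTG

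A further 3 circles share 1 donor, at the 3′ end of the locus (109.305 Mb), and here the donor bases are in capitals.
novel_circ_0022803 (506 nt): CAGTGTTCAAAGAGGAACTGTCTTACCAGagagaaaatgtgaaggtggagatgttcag
novel_circ_0022804 (132 nt): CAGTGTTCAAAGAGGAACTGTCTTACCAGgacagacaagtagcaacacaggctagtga
novel_circ_0022805 (132 nt): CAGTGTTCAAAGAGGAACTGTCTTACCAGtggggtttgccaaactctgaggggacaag
The junction of each of the 24 circles was found in 1 circle only, and no junction shared a stretch of 20 bases with a circle of another locus.

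Summed over its 9 circles, the minus-strand locus had 125, 140 and 144 reads in the CFA libraries and 33, 104 and 63 in the saline libraries (replicates 1 to 3). In RPM these were 190, 215 and 159 against 57.5, 88.4 and 67.3, so the lowest CFA library lay above the highest saline library. The same held, toward higher CFA values, for 3.09% of the 7580 loci tested. The means were 188 ± 27.8 and 71.1 ± 15.8 RPM (SD, n = 3 each), a ratio of 2.65.

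By the group means over all libraries, the circle with the most reads took almost no part in that difference. The 437 nt circle novel_circ_0022821, which spans 3231 nt of the genome, had 33, 38 and 16 CFA reads against 21, 57 and 29 saline reads. Its level was 50.3, 58.3 and 17.7 RPM against 36.6, 48.5 and 31.0 RPM. CFA replicates 1 and 2 lay above every saline library and CFA replicate 3 below all of them, so the groups overlapped. The means of 42.1 ± 21.5 and 38.7 ± 8.92 RPM (SD, n = 3 each) differed by 3.41 RPM, which is 2.91% of the difference of the locus sum.

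With this circle set aside, the other 8 circles together held 140, 157 and 142 RPM in the CFA libraries and 20.9, 40.0 and 36.3 RPM in the saline libraries. These 2 ranges were far apart, with means of 146 ± 9.06 and 32.4 ± 10.1 RPM (SD, n = 3 each) and a ratio of 4.51. Without saline replicate 1, the shallowest library, the log2 ratio of these 8 circles was 1.94, compared with 2.17 over all 6 libraries. The share of the leading circle was accordingly lower in the CFA libraries. The 437 nt circle made up 26.4% (95% Wilson interval 19.5 to 34.7), 27.1% (20.5 to 35.0) and 11.1% (6.96 to 17.3) of the locus reads in the CFA libraries. In the saline libraries it made up 63.6% (46.6 to 77.8), 54.8% (45.2 to 64.0) and 46.0% (34.3 to 58.2). These intervals cover counting error within a library and not the spread between rats. PCR copies were not marked, so the intervals may be too narrow. Every saline share was above every CFA share.

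**Figure D1:**
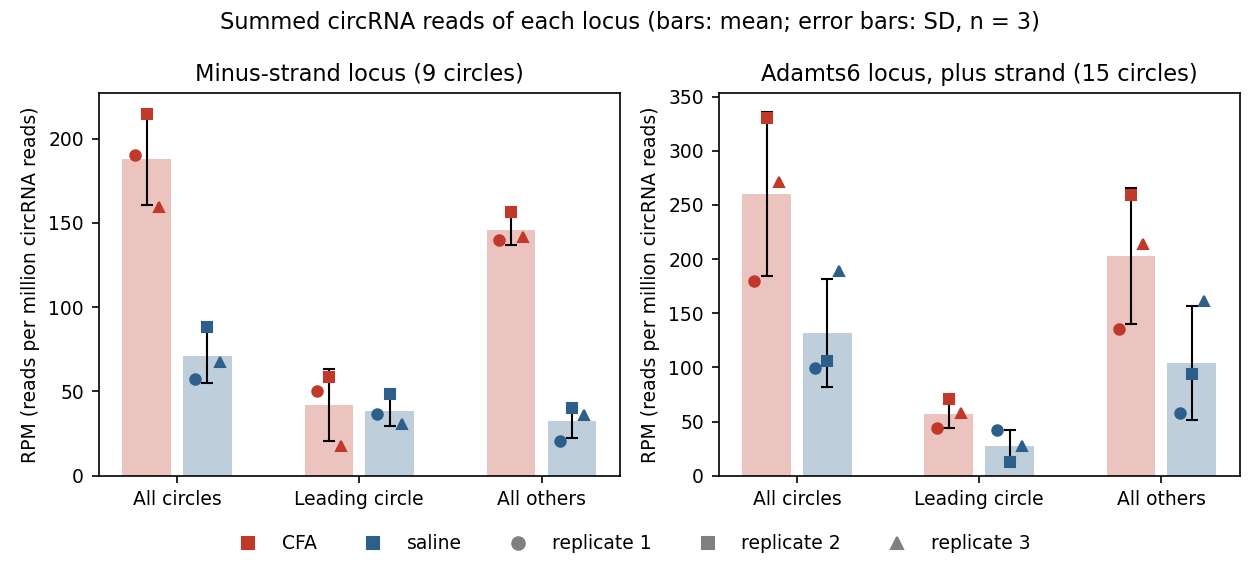
Summed level of each locus in RPM (y axis), for all circles, for the circle with the most reads and for all others. Points are the 6 libraries, bars the group means and error bars the SD (n = 3 each). In the minus-strand locus the leading circle has means of 42.1 RPM after CFA and 38.7 RPM after saline, while the others have 146 and 32.4 RPM. In the Adamts6 locus both the leading circle and the others have higher CFA means.

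The 357 nt circle novel_circ_0022813 contributed 27.2% of the difference of the sum, ahead of the 424 nt circle novel_circ_0022819 by an order that single libraries decided. Its difference of 31.9 RPM was 19.7 RPM without CFA replicate 2, where that of the 424 nt circle was 26.9 RPM. Without saline replicate 1 the 2 differences were 27.1 and 27.8 RPM. It had 24, 43 and 20 CFA reads against 0, 14 and 16 saline reads, or 36.6, 66.0 and 22.1 RPM against 0, 11.9 and 17.1 RPM. Every CFA library was above every saline library, but the CFA values were far apart among themselves, and the means were 41.6 ± 22.4 and 9.67 ± 8.76 RPM (SD, n = 3 each). This circle joins the first acceptor of the locus to a donor 59811 nt downstream, the widest span in the locus.

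The 424 nt circle novel_circ_0022819 had the smallest SD of the 9 circles within the CFA group. It had 24, 24 and 32 reads there, or 36.6, 36.8 and 35.4 RPM, and 6, 6 and 11 reads after saline, or 10.5, 5.10 and 11.8 RPM. The means were 36.3 ± 0.747 and 9.10 ± 3.53 RPM (SD, n = 3 each). Counting alone brings a spread of 6.26 to 7.52 RPM at these read numbers (the square root of the reads), so an SD of 0.747 RPM understates the error. The circle contributed 23.2% of the difference of the sum, and its 3 CFA values all lay above its 3 saline values.

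The 424 nt and 437 nt circles are compared by sequence because they start at the same base and differed in how their levels compared between the groups. They share 223 bases, a first block of 77 bases (capitals) and an exon of 146 bases from 109363242 to 109363387 (lower case). In the 424 nt circle the exon follows the first block inside the circle. In the 437 nt circle the exon is the end of the sequence and precedes the first block across the back-splice junction, with other bases between them on the inner side.
novel_circ_0022819 (424 nt): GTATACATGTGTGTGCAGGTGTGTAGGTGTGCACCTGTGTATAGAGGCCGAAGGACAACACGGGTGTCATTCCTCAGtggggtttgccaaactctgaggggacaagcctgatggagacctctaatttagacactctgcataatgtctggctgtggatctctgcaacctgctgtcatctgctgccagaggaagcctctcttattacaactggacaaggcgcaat
novel_circ_0022821 (437 nt): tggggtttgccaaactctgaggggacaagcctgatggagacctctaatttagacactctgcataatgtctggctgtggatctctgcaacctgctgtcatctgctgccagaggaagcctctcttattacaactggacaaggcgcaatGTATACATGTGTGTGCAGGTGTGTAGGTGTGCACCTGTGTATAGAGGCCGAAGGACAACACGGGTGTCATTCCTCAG
The exon of 146 bases is present in 5 of the 9 circles, which together had means of 136 RPM after CFA and 60.6 RPM after saline. A second exon, 134 bases from 109306662 to 109306795, is present in 3 circles, which together had means of 62.8 RPM after CFA and 15.1 RPM after saline. Both exons are bracketed by the start of one circle and the end of another, with the same bases in the deposited sequences of both. Neither was found in a circle outside the locus. The inner bases of all circles come from the deposited sequences, and whether reads covered them was not examined.

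The 6 remaining circles of the minus-strand locus had between 2 and 60 reads over the 6 libraries, and the CFA mean was higher in each of the 6, by 1.02 to 13.4 RPM. Together they made up 46.7% of the difference of the sum. The 506 nt circle novel_circ_0022803 had 12, 11 and 11 CFA reads against 6, 7 and 0 saline reads, and the groups did not overlap. The 343 nt circle novel_circ_0022817, with 7, 15 and 11 against 0, 11 and 0 reads, was separated in RPM only. CFA replicate 1 lay at 10.7 RPM and saline replicate 2 at 9.35 RPM, closer together than 1 read of CFA replicate 1 (1.52 RPM). The 132 nt circle novel_circ_0022805 had 11, 5 and 28 CFA reads against 0, 9 and 7 saline reads. Its CFA replicate 2 and saline replicate 2 were nearly level at 7.67 and 7.65 RPM.

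No saline library held reads of 3 circles. The other 132 nt circle, novel_circ_0022804, had 9, 0 and 21 CFA reads. Pooled over the CFA libraries this was 12.1-fold the level that 3 reads over the pooled saline libraries would give, although CFA replicate 2 was also listed at 0. The 0 of each saline library allows up to 3 reads on its own, so this ratio is not a lower bound. The 235 nt circle, from 109306662 to 109331257, had 3, 4 and 5 CFA reads. Pooled, this was 4.86-fold the level of 3 reads over the pooled saline libraries, with the same limit. The 289 nt circle had 2 reads in CFA replicate 1 alone. Both the 132 nt and the 235 nt circle start at the acceptor at 109331257, which was thus read 12, 4 and 26 times in the CFA libraries and is listed at 0 in every saline library.

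Over the whole minus-strand locus the CFA mean was the higher one for 9 of 9 circles, and all CFA values were above all saline values for 6 of 9. Over the 22426 circRNAs tested the share with such separation toward CFA was 3.21%, and 49.3% had a higher CFA mean. The members were chosen on this contrast, so nothing is read from their count. Scaled by TMM or by RLE size factors the separated circles were 5 of 9, since the nearly level 132 nt circle then overlapped. The 235 nt circle lay above saline zeros only. Its lowest CFA value, 4.57 RPM, is below the 5.23 RPM that a 0 is taken to allow in saline replicate 1. For the 343 nt circle the gap between the groups was smaller than 1 read of CFA replicate 1 (1.52 RPM). The higher CFA mean of the 437 nt circle depended on single libraries: the difference turned to -0.67 RPM without CFA replicate 1, to -4.70 without CFA replicate 2 and to -0.44 without saline replicate 3. Without CFA replicate 3 the difference was 15.6 RPM.

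**Figure D2:**
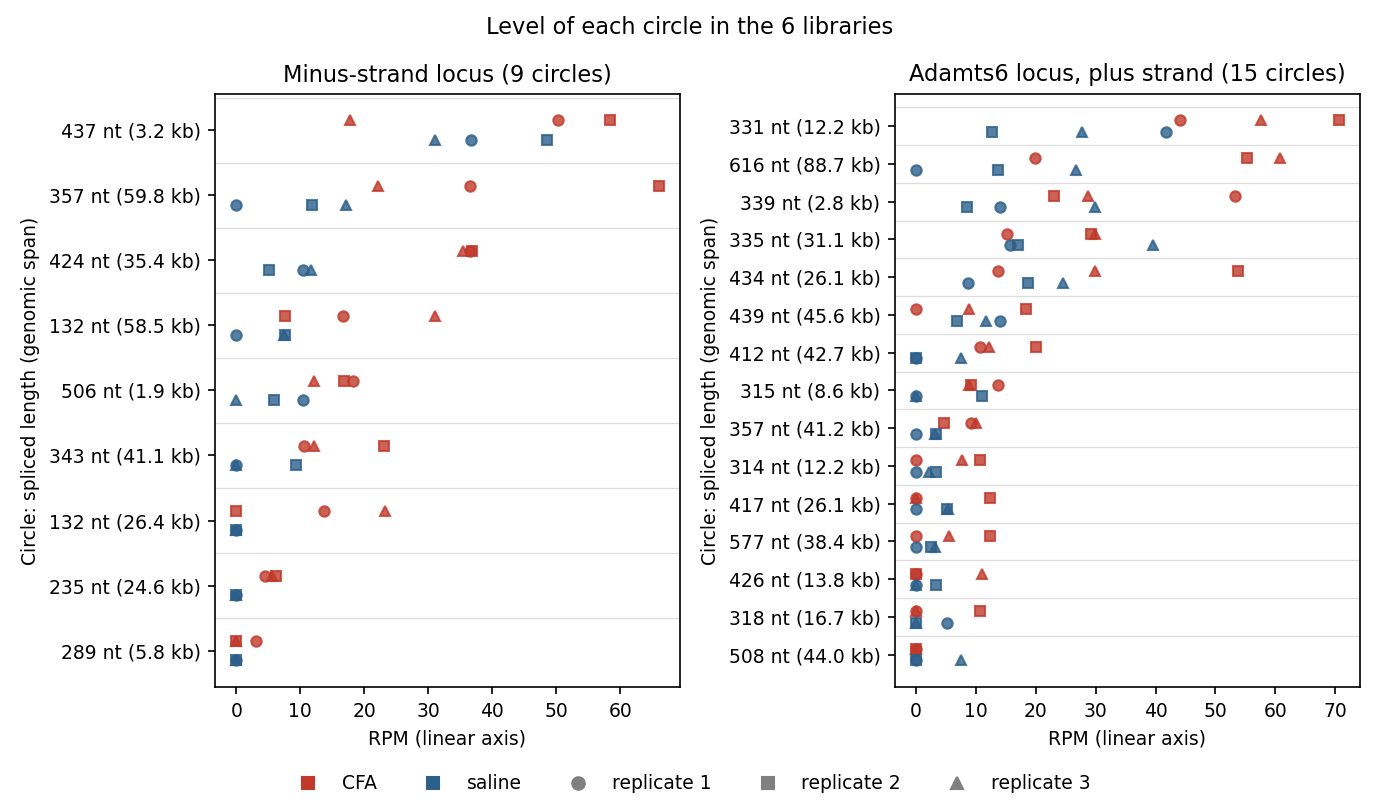
Level of each circle (rows, by spliced length and genomic span, ordered by total reads) in RPM (x axis, linear) in the 6 libraries, with CFA points drawn above saline points. In the minus-strand locus 6 of the 9 rows show all CFA points to the right of all saline points, but the top row does not. In the Adamts6 locus 3 of the 15 rows do.

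The junctions of the Adamts6 circles described in full are printed next, with the acceptor bases in capitals. The first pair starts at the 5′ end of the locus (34.374 Mb) and the second pair at 34491467, while the last circle starts at 34531304.
novel_circ_0025889 (616 nt): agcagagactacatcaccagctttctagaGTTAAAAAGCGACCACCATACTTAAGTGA
novel_circ_0025887 (335 nt): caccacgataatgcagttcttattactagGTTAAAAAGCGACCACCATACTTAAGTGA
novel_circ_0025905 (331 nt): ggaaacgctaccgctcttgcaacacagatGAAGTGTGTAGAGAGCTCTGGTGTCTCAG
novel_circ_0025906 (434 nt): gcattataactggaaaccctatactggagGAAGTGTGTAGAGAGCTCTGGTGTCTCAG
novel_circ_0025915 (339 nt): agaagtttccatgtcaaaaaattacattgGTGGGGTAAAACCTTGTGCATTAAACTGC

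Summed over its 15 circles, the Adamts6 locus had 118, 215 and 245 reads in the CFA libraries and 57, 125 and 177 in the saline libraries. In RPM these were 180, 330 and 271 against 99.4, 106 and 189. Here the groups overlapped, since CFA replicate 1 lay below saline replicate 3. The means were 260 ± 75.7 and 132 ± 49.9 RPM (SD, n = 3 each), a ratio of 1.98. The fitted log2 fold change of the sum in edgeR was 0.95 ± 0.34 (SE), where that of the minus-strand locus was 1.37 ± 0.34. Each SE was computed from the fold change and the F statistic of the fit, and no test is drawn from it.

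Unlike in the minus-strand locus, the circle with the most reads shared in the difference. The 4 largest contributions made up 73.5% of it, beside 72.4% in the minus-strand locus. The 331 nt circle novel_circ_0025905 had 29, 46 and 52 CFA reads against 24, 15 and 26 saline reads. Its level was 44.2, 70.6 and 57.6 RPM against 41.8, 12.8 and 27.8 RPM, so that the lowest CFA library stood just above the highest saline library. The means were 57.4 ± 13.2 and 27.5 ± 14.5 RPM (SD, n = 3 each), and the circle contributed 23.3% of the difference of the sum. Without it the sum still had a ratio of 1.95, at 203 ± 62.6 against 104 ± 52.7 RPM (SD, n = 3 each). Its share of the locus reads was 22.4 ± 1.89% in CFA against 22.9 ± 16.7% in saline (SD, n = 3 each), from 12% to 42.1% over the saline libraries.

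Circles that begin at the same Adamts6 acceptor differed in how they compared between the groups. The 616 nt circle novel_circ_0025889, which holds the RefSeq start window and reaches 88718 nt along the genome, had 13, 36 and 55 CFA reads against 0, 16 and 25 saline reads. In RPM these were 19.8, 55.2 and 60.9 against 0, 13.6 and 26.7, with CFA replicate 1 below saline replicate 3. Its means of 45.3 ± 22.3 and 13.4 ± 13.4 RPM (SD, n = 3 each) gave 24.8% of the difference of the sum, close to the 23.3% of the 331 nt circle. The order of these 2 circles turned with single libraries, to 24.1 against 29.9 RPM without CFA replicate 3 and to 25.2 against 37.2 RPM without saline replicate 1. The 335 nt circle novel_circ_0025887 starts at the same base and had 10, 19 and 27 CFA reads against 9, 20 and 37 saline reads. Its means were almost equal, 24.8 ± 8.26 and 24.1 ± 13.4 RPM (SD, n = 3 each), and their order turned with TMM scaling, to a difference of -0.25 RPM.

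The 2 other circles described in full lay toward the 3′ side of the locus. The 434 nt circle novel_circ_0025906 has the acceptor of the 331 nt circle and an additional exon of 103 bases from 34517458 to 34517560. It had 9, 35 and 27 CFA reads against 5, 22 and 23 saline reads, with means of 32.4 ± 20.1 and 17.3 ± 8.02 RPM (SD, n = 3 each). Its groups overlapped, and without CFA replicate 2 the difference of 15.1 RPM was 4.47 RPM, while without CFA replicate 1 it was 24.5 RPM. The 339 nt circle novel_circ_0025915 spans 2822 nt and had 35, 15 and 26 CFA reads against 8, 10 and 28 saline reads. Its means were 35.0 ± 16.1 and 17.5 ± 11.1 RPM (SD, n = 3 each), again with overlap, because saline replicate 3 was above CFA replicates 2 and 3. Without CFA replicate 1 its difference of 17.6 RPM was 8.45 RPM.

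The other 10 circles of the Adamts6 locus had 7 to 47 reads each and made up 26.0% of the difference. The CFA mean was higher for 8 of them. The 412 nt circle, from 34491467 to 34534125, had 7, 13 and 11 CFA reads against 0, 0 and 7 saline reads, with all CFA values above all saline values. The 357 nt circle, from 34462446 to 34503654, had 6, 3 and 9 reads against 0, 4 and 3 and was separated in RPM only. Its CFA replicate 2 lay at 4.60 RPM and its saline replicate 2 at 3.40 RPM. The 2 circles with a lower CFA mean were the 439 nt circle, with 0, 12 and 8 against 8, 8 and 11 reads, and the 508 nt circle, with 7 reads in saline replicate 3 alone. These 4 were singled out after their values were seen.

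Over the locus the CFA mean was higher for 13 of 15 circles, or 12 of 15 with TMM scaling, and all CFA values were above all saline values for 3 of 15, beside the 3.21% of all circRNAs tested. Without CFA replicate 1 the separated circles were 7 and without saline replicate 3 they were 5. Leaving out a library can only keep or raise this count, and the 3.21% was taken with no library left out. CFA replicate 1 had no reads for 7 of the 15 circles, whereas the other CFA libraries had none for 2 and 3. Saline replicate 1 had none for 9 of 15 Adamts6 circles and for 6 of 9 circles of the minus-strand locus. It was also the shallowest library, and the part of depth in these zeros was not tested.

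**Figure D3:**
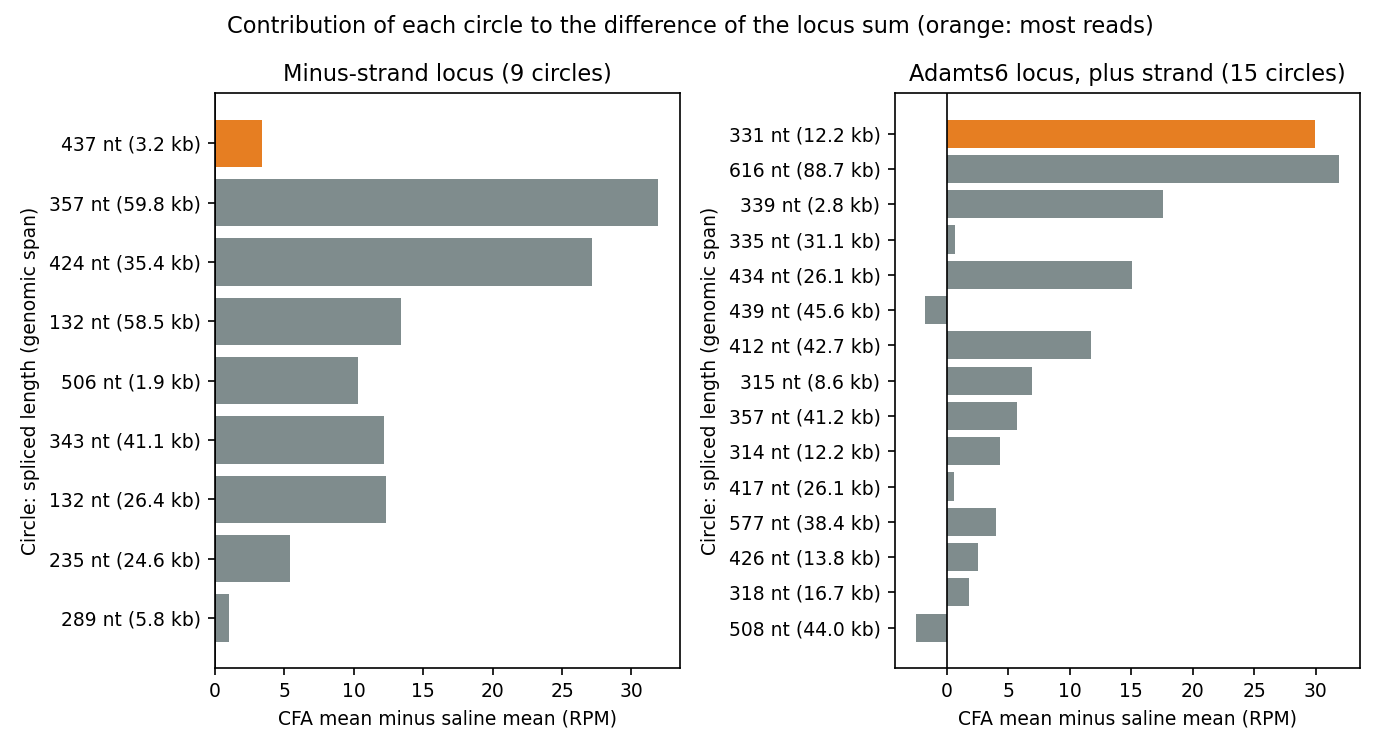
CFA mean minus saline mean in RPM (x axis) for each circle (rows, ordered by total reads). The bar of the circle with the most reads is orange. It is 3.41 RPM long in the minus-strand locus, where the longest bar has 31.9 RPM, and it is the second longest in the Adamts6 locus, where 2 circles have bars to the left of 0.

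Ends were shared widely in both loci. The 9 circles of the minus-strand locus used 4 acceptors and 6 donors, and the 15 Adamts6 circles used 9 acceptors and 8 donors. The acceptor at the 5′ end of the minus-strand locus, common to 4 circles, held 135 ± 48.4 RPM in CFA libraries and 60.6 ± 13.9 RPM in saline libraries (SD, n = 3 each), or 63.7% of the difference of its locus. Read by donor, the same locus had 46.6 ± 21.0 against 10.5 ± 3.06 RPM at the donor of its 3′ end and 47.0 ± 22.8 against 9.67 ± 8.76 RPM at the donor at 109306662 (SD, n = 3 each). In the Adamts6 locus the acceptor at 34491467, common to 3 circles, held 104 ± 38.1 and 47.3 ± 14.5 RPM (SD, n = 3 each), 44.2% of the difference.

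**Figure D4:**
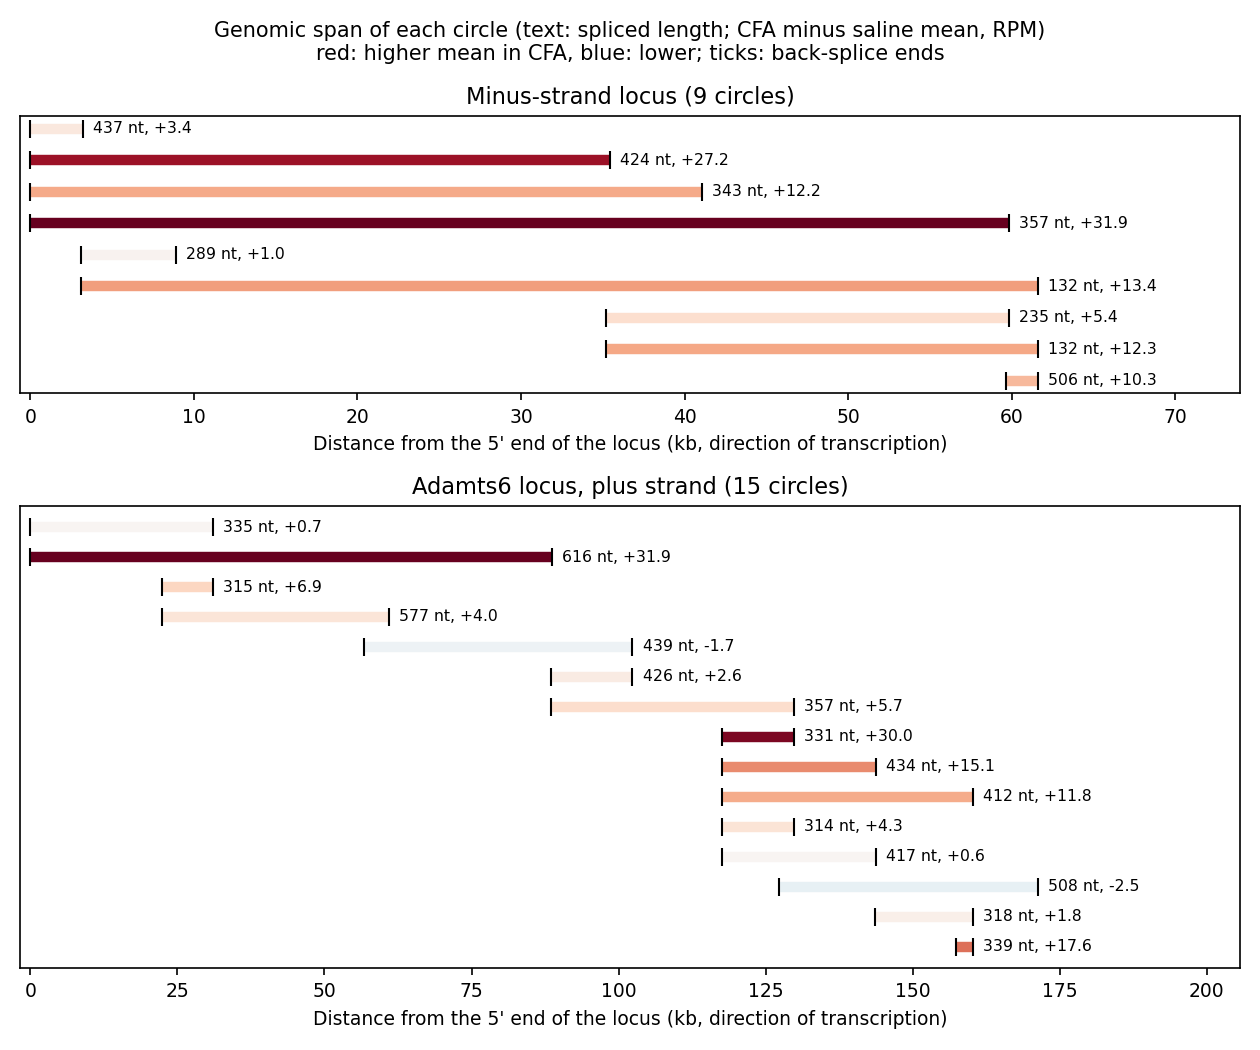
Genomic span of each circle, as distance in kb from the 5′ end of its locus in the direction of transcription (x axis). Bars run from acceptor to donor, colour gives the CFA minus saline difference and the text its value in RPM beside the spliced length. In the minus-strand locus the 4 circles that begin at 0 have differences from 3.41 to 31.9 RPM. In the Adamts6 locus the 335 nt and 616 nt circles begin together and differ by 0.68 and 31.9 RPM.

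A pair of Adamts6 acceptors lies only 4 bases apart, at 34491467 and 34491471, and the circles from them also differ inside. The 331 nt circle holds 13 bases that the 314 nt circle novel_circ_0025909 lacks. The stretch is printed with the extra bases in capitals and 30 bases on each side.
novel_circ_0025905: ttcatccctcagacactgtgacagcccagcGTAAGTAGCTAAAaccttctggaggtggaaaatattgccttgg
novel_circ_0025909: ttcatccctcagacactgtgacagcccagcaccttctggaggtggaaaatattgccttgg
In the deposited sequences the extra bases were present in all 3 circles that start at 34491467 and absent from 4 other circles that cover this place. The 3 circles with them had 104 ± 38.1 RPM in CFA and 47.3 ± 14.5 RPM in saline, and the 4 without had 18.2 ± 9.25 and 10.02 ± 9.23 RPM (SD, n = 3 each). Both acceptors give junctions that differ by a shift of 4 bases, as the start of the junction of the 314 nt circle shows, so the split of reads between them is uncertain.
novel_circ_0025909 (314 nt): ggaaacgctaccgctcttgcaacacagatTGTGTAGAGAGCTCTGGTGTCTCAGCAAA

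Sequence features played no part in the choice of the loci and are given as counts without a test. A reading frame without a stop codon along the whole sequence was present in 1 of 9 circles of the minus-strand locus and in 4 of 15 Adamts6 circles. Among circles of 300 to 600 nt it was present in 0 of 5 and 4 of 14, compared with 52.0% of all 22130 circRNAs of that length. The 223 bases printed above for the 424 nt circle already hold a stop codon in every reading frame. Circles of a locus share exons and with them stop codons, so neither count is one of independent circles. Of the Adamts6 circles that cover the place of the 13 bases, a frame without a stop codon was found in 0 of 3 with them and 2 of 4 without. The 13 bases hold a stop codon in every reading frame, so the 0 of 3 was fixed by the sequence. Median length was 343 nt in the minus-strand locus and 412 nt in the Adamts6 locus, against 384 nt for all circRNAs. Median GC content was 47.6% and 49.0%, against 47.7% for all circRNAs.

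At the level of single circles, 22 of the 24 had at least 10 reads and entered the fit over all circRNAs, and 0 of the 22 were called by edgeR's quasi-likelihood test at an adjusted p below 0.05, or by DESeq2. Over all circRNAs edgeR called 0.125% in either direction and 0.0624% as higher in CFA (28 and 14 of 22426, with 602 at an unadjusted p below 0.05), and DESeq2 called 4. Of the loci 0.0132% were called (1 of 7580) and 0% as higher in CFA (0 of 7580, with 125 at an unadjusted p below 0.05 in either direction in edgeR and 134 in DESeq2), and neither of the loci described here was among them. In the minus-strand locus the fitted log2 fold changes of the 8 circles tested lay between 0.06 and 6.36 with a median of 1.94, the upper end belonging to a circle listed at 0 in all saline libraries. In the Adamts6 locus those of the 14 tested lay between -0.28 and 2.33 with a median of 1.21.

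By likeness of pattern over the 6 libraries, the 3 loci closest to the minus-strand locus were on chromosome 8, 60807474 to 60817064 (Pearson's r = 0.951), chromosome 2, 57516420 to 57545068 (0.942), and chromosome 18, 69634006 to 69657373 (0.937), all on the minus strand. The closest to the Adamts6 locus were on chromosome 9, 38424186 to 38444612 on the plus strand (0.983), chromosome 3, 108833170 to 108854617 on the plus strand (0.982), and chromosome 14, 81660463 to 81672500 on the minus strand (0.951). Each of these like loci had a higher CFA mean, such as 89.5 against 62.7 RPM on chromosome 8 and 114 against 74.7 RPM on chromosome 9. Their means are no further observation, because the patterns they were picked to match had been chosen as higher in CFA. They had the 3 highest r for each locus among 2465 loci of at least 50 RPM in log2(RPM + 1). A search that wide can return high values from 6 points. The 2 loci had an r of 0.761 with each other, and both were chosen for the same difference.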

How the data were processed

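Libraries were made, per the labels' protocols, from RNA bound to poly-T beads and primed with random hexamers, with PCR. What a poly-T step does to reads of circles, which lack a tail, was not tested. Per the submitters' processing notes DESeq2 1.20.0, featureCounts 1.5.0-p3, HISAT2 2.0.5 and StringTie 1.3.3b were used, with no role stated. The program that called circRNAs was not given in the sources used here. For each library the authors deposited a raw count per circRNA and an RPM value headed TPM in which 1 read is worth the same for every circRNA of a library. The RPM in the text were recomputed as counts over column totals, because the deposited RPM imply totals of which the table holds 99.5% to 99.6%. CFA replicate 3 carries a differently lettered column name than its group, with no meaning given.

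Groups and replicate numbers come from the sample titles, and the series' design text gives 3 rats per group. Starts in the sequence headers had 1 added, 44 identifiers listed at 2 positions, none of them a member, kept the first, and a locus is an unbroken run of overlapping same-strand circRNAs (9563 in all). The background fits used edgeR 4.0.16 in R 4.3.3 (TMM, robust quasi-likelihood, at least 10 counts over the 6 libraries), with DESeq2 1.42.0 as an alternative. Tested on simulated data with a dispersion of 0.1 set for every circRNA, the circRNA fit over 20994 circRNAs recovered 89% of 4-fold changes in circRNAs of at least 300 reads. This is more than any circle described here held, so recovery at their read numbers was not simulated. Circles were described in full when they held at least 10% of the locus RPM or 20% of its difference. The members, lists and rules were chosen with earlier results of these data known. Host genes were to be named by protein sequence; no protein table was used here, and the match to RefSeq start windows was chosen after the data were seen. Tissue marker lists were therefore not analysed here.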

Additional observations from a re-analysis of the deposited data

How the results depend on the processing

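The background count of 28 circRNAs called in edgeR was 0 when 30 counts were required and 0 with filterByExpr (237 and 130 circRNAs had an unadjusted p below 0.05), 4 in DESeq2 (379 had) and 45 with the replicate block; leaving out 1 library gave 15 (without saline replicate 1) to 40 (without CFA replicate 3). The count of 1 locus was 4 without a filter, 0 with 30 counts required, filterByExpr or a fit that is not robust (105, 78 and 136 at an unadjusted p below 0.05), 26 with the replicate block and 0 to 3 without 1 library. The cause was not tested. No circle or locus described here was called under any of these settings. Same-numbered libraries did not deviate together (r from -0.16 to 0.02 over 6352 circRNAs), so the block is not read as stronger or weaker; with it the log2 fold changes of the sums were 1.39 and 0.98.

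The log2 ratio of the minus-strand sum, 1.40, was 2.17 without its leading circle, 0.71 with the 2 circles read in all 6 libraries alone, since the leading circle is one of them, and 1.27 to 1.59 without 1 library. That of the Adamts6 sum, 0.98, stayed within the spread between replicates in every setting run, at 0.78 (without CFA replicate 2) to 1.34 (without saline replicate 3) without 1 library. Without their leading circles the ranges were 1.94 to 2.35 and 0.67 to 1.43. The share of the 437 nt circle differed by -37.7 to -28.1 percentage points, CFA minus saline. Leaving out 1 library, higher CFA means were seen for 7 to 9 circles of the minus-strand locus and 10 to 14 Adamts6 circles, and separated values for 6 to 7 and 3 to 7. The number of separated circles cannot fall when a library is left out. The difference of the 437 nt circle, 3.41 RPM, turned to -0.67, -4.70 and -0.44 RPM without CFA replicate 1, CFA replicate 2 or saline replicate 3, and was 15.6 RPM at most (without CFA replicate 3). That of the 335 nt Adamts6 circle turned to -0.25 with TMM, to -1.52 and -1.88 without CFA replicate 2 or 3, and to -3.51 and -2.85 without saline replicate 1 or 2, and was 8.41 RPM without saline replicate 3. Counts of 33 to 245 reads per locus and library limit all of these values.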
